A study of Mus musculus with 12 samples.

Results

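A stretch of 570 kb of mouse chromosome 1 was examined in C2C12 cells, an immortalised mouse myoblast line that fuses into myotubes in low serum. The stretch (mm9, 137200000 to 137770000) holds Lmod1, Nav1, Csrp1, Tnni1 and Tnnt2, and it was chosen by its H3K4me1 peaks in Control cells, since it lies in the 1 Mb window with more of these peaks than any other. It holds 288 of the 134900 peaks in the 6 deposited lists. One group of cells had been differentiated for 48 h in horse serum with the LSD1 inhibitor S2101 at 10 µM, and the other for the same time with vehicle, named Control in the labels. Chromatin immunoprecipitation and sequencing gave 1 library each for S2101 H3K4me1, S2101 H3K4me2 and S2101 H3K4me3 and for the same 3 marks in Control cells. H3K4me1 and H3K4me2 belong to experiment 1 and H3K4me3 to experiment 2, so what differs between H3K4me3 and the other marks cannot be told apart from the experiment. With 1 library per mark and treatment there was no replicate check, no difference between treatments was tested, and the number of reads behind each list is unknown.

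Lysine 4 of histone H3 carries up to 3 methyl groups. A single group (H3K4me1) is found on enhancers and on the shoulders of promoters, a full set (H3K4me3) at promoters in use, and H3K4me2 at either. LSD1, also named Kdm1a, takes methyl groups off the mono- and dimethylated forms and cannot act on the trimethylated one. Several genes of the stretch serve contraction or the actin cytoskeleton. Tnni1 encodes the slow skeletal troponin I, the inhibitory subunit of the complex that lets calcium switch on the thin filament. Tnnt2 encodes the cardiac troponin T, the subunit that anchors the complex to tropomyosin, and is also made in embryonic skeletal muscle. Lmod1 encodes leiomodin 1, an actin filament nucleator best known from smooth muscle, and Csrp1 a LIM domain protein that binds the actin crosslinker alpha-actinin. Nav1 encodes a microtubule-associated neuron navigator.

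All 5 genes were found by symbol in the RefSeq table of GRCm38.p6, which gives their order along the chromosome as Lmod1, Nav1, Csrp1, Tnni1 and Tnnt2. Shisa4 and Ipo9 stand between Lmod1 and Nav1, Phlda3 between Csrp1 and Tnni1, and Lad1 between Tnni1 and Tnnt2. That table and the peak lists are of different builds. No peak was therefore assigned to a gene, and peaks are given by mm9 position, 1-based. The 3 sequences below show the 250 bases before the annotated start sites of Lmod1, Tnni1 and Tnnt2, the thin filament genes of the stretch. Whether any peak described further on covers them was not determined. The stretch holds other genes too, and H3K4me3 here may belong to the promoters of those. The sequences are from RefSeq, GRCm38.p6, chromosome 1, plus strand, 5′ to 3′ and end at the base before the start site. Capitals mark matches on either strand to the E-box CANNTG, the letters bound by MyoD and other myogenic bHLH factors, or to MCAT, CATTCC, the letters bound by TEAD factors.
Lmod1: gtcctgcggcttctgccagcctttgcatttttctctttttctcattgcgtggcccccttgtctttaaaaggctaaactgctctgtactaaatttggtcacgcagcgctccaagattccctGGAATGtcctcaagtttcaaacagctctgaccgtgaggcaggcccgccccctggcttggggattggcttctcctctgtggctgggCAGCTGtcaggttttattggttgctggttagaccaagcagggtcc
Tnni1: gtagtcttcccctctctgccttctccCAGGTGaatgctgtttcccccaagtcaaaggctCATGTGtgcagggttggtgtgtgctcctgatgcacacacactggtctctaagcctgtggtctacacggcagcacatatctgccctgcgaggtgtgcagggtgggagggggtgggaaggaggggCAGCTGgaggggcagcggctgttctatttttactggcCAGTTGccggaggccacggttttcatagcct
Tnnt2: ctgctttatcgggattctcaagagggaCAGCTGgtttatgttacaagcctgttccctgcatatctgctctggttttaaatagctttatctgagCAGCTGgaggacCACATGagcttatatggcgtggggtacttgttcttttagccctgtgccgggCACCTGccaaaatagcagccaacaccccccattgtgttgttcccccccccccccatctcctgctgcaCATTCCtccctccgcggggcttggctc
No 2 of the marked matches overlap. The Tnni1 and Tnnt2 stretches each held 4 E-boxes, the Lmod1 stretch 1. Lmod1 and Tnnt2 held 1 MCAT match each. Of the 8 start sites that the table gives for the 5 genes, 7 had an E-box in these 250 bases, all but that of Nav1, compared with 66.2% of all 32851 promoters in the table. The 2 start sites of Tnni1 lie so close that their stretches share sequence. MCAT occurred at 3 of the 8 and in 12.6% of all promoters, and the TATA box TATAAA at 1 (Nav1) and in 12.4%. The MEF2 and CArG box consensus letters occurred at 0 of the 8, against 2.92% and 1.47% of all promoters. These are letter matches only and say nothing of what binds.

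H3K4me1 and H3K4me2 covered less of the stretch with S2101 than with Control, and H3K4me3 slightly more. H3K4me1 peaks numbered 74 with S2101 and 134 with Control and covered 31719 bp and 86860 bp, 5.56% and 15.2% of the stretch, a ratio of 0.365. When the Control list was cut by score to the length of the S2101 list, the stretch held 74 H3K4me1 peaks with S2101 and 72 with Control, and the ratio of covered length was 0.516. H3K4me2 peaks numbered 29 with S2101 and 27 with Control and covered 14246 bp and 38417 bp, a ratio of 0.371. H3K4me3 peaks numbered 11 with S2101 and 13 with Control and covered 27412 bp and 25335 bp, a ratio of 1.08. Over the whole lists the ratios of covered length were 0.347 for H3K4me1, 0.467 for H3K4me2 and 1.10 for H3K4me3. The H3K4me2 ratio in the stretch thus lay below that of its whole lists, a difference that was not tested. Between 137661829 and 137669423 H3K4me2 covered 1657 bp with S2101 and 7146 bp with Control. Between 137479389 and 137483062 it covered 631 bp and 3276 bp, so 2 positions weigh on the ratio. H3K4me1 was what the stretch was chosen on, so its values describe the stretch and support nothing.

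**Figure D1:**
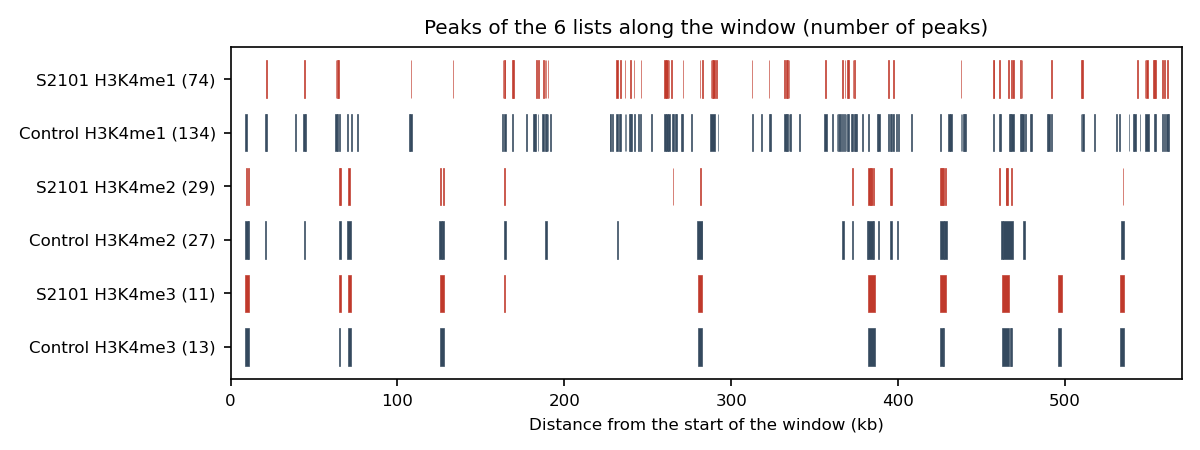
Each bar is 1 peak, drawn to scale along the stretch (x axis, kb from its start), with 1 row per list and the number of peaks in brackets, S2101 above Control for each mark. H3K4me3 stands at 11 places in the S2101 list. Of the H3K4me2 peaks 23 of 29 with S2101 and 14 of 27 with Control overlap H3K4me3 (whole lists 89.5% and 71.8%). H3K4me1 lies both at and between the H3K4me3 places, with 74 peaks with S2101 and 134 with Control (74 and 72 with lists of equal length).

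The choice of the stretch rests on a narrow lead. The 1 Mb window around the stretch held 161 Control H3K4me1 peaks, followed by 152 each in the windows from 79 and from 80 Mb of chromosome 10, against a median of 10 over the 2130 windows with a peak in any list. By covered length it ranked 10 (102960 bp). The S2101 H3K4me1 list placed it at rank 14 with 81 peaks. It ranked 99 by S2101 H3K4me2 peaks (38) and 55 by Control H3K4me2 peaks (36), and 165 by S2101 H3K4me3 peaks (17) and 112 by Control H3K4me3 peaks (19). Its rank in Control H3K4me1 is what chose it. The neighbouring sequence held fewer peaks. In the 570 kb before it there were 9 H3K4me1 peaks with S2101 and 22 with Control, and in the 570 kb after it 11 with S2101 and 38 with Control. The covered length of H3K4me1 in these flanks was 0.340 and 0.224 times as long with S2101 as with Control, and that of H3K4me2 0.477 and 0.402 times.

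H3K4me3 marked 11 places, counting peaks of either treatment less than 2 kb apart as 1 place. At 10 of the 11 it was listed in both treatments. Of the S2101 peaks 10 of 11 overlapped a Control peak by at least 1 bp, and of the Control peaks 11 of 13 overlapped an S2101 peak. Over the whole lists these shares were 91.6% and 98.7%. The covered length was longer with S2101 at 7 places and shorter at 4. Over the genome 76.4% of 13373 such places were longer with S2101. For the 9 peaks that matched one to one the median ratio of widths, S2101 over Control, was 1.02 (range 0.922 to 2.64).

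Toward the start of the stretch stood 4 H3K4me3 places with peaks in both treatments. The one at 137208862 to 137211107 with S2101 was 2246 bp wide, against 2398 bp with Control (137208771 to 137211168). Further along, the peak at 137270296 to 137271913 with S2101 measured 1618 bp, against 1755 bp with Control (137270245 to 137271999). The next was 2327 bp with S2101 (137325377 to 137327703) and 2373 bp with Control (137325372 to 137327744). These 3 had the score of 3100 in both lists, the highest score in the stretch, which 6 S2101 and 5 Control H3K4me3 peaks share, so scores do not rank them. The remaining one differed more: it was 1193 bp wide with S2101 (137264781 to 137265973, score 719.53) and 452 bp with Control (137264904 to 137265355, score 381.52). Scores are the authors' and rank peaks only within a list.

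In the middle of the stretch H3K4me3 was listed at 137479865 to 137482576 with S2101 (2712 bp, score 2013.31) and at 137479895 to 137482583 with Control (2689 bp, score 1821.37). This place differed from the others in H3K4me1. With S2101 there were 2 H3K4me1 peaks, one inside it at 137481131 to 137481501 (371 bp, score 104.05) and one across its end at 137482452 to 137483062 (611 bp, score 341.23), while Control had no H3K4me1 peak within 2 kb. Of the 11 places it was the only one with H3K4me1 in the S2101 list alone, and 2.58% of places over the genome were of that kind. H3K4me2 covered 631 bp of it with S2101 and 2708 bp with Control, a ratio of 0.233, below that of the other places.

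One H3K4me3 peak was found with S2101 only, at 137363843 to 137364583 (741 bp, score 168.34, the lowest of the S2101 H3K4me3 peaks here). Such places made up 6.97% of those in the genome. Both other marks were listed there in both treatments. H3K4me1 covered 702 bp of it with S2101 and all 741 bp with Control, and H3K4me2 covered 277 bp with S2101 and 741 bp with Control.

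The last 5 places lay in the part of the stretch with the widest H3K4me3. The peak at 137581920 to 137586005 with S2101 was 4086 bp wide, against 3961 bp with Control (137581987 to 137585947), both with the score of 3100. At 137624969 to 137628489 S2101 had a single peak of 3521 bp (score 3100), and Control had a peak of 1879 bp (137625024 to 137626902, score 2968.96) followed by one of 627 bp (137626923 to 137627549, score 394.43). The widest H3K4me3 peak of the stretch was 4366 bp with S2101 (137661964 to 137666329) and 4292 bp with Control (137662002 to 137666293), again with the score of 3100 in both. Just behind it Control alone had 2 further small peaks, at 137666967 to 137667497 (531 bp, score 110.50) and at 137667746 to 137668243 (498 bp, score 110.44). They are the only Control H3K4me3 peaks here without an S2101 peak, and their scores are the lowest of that list here. Near the end of the stretch 2 H3K4me3 peaks were wider with S2101 and had scores below 3100. One measured 2074 bp with S2101 (137695883 to 137697956, score 1075.26) and 1743 bp with Control (137695924 to 137697666, score 559.23). The other measured 2528 bp with S2101 (137732904 to 137735431, score 1385.10) and 2137 bp with Control (137732864 to 137735000, score 1194.96).

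The place at 137695883 to 137697956 carried H3K4me3 alone. No H3K4me2 or H3K4me1 peak of either treatment lay within it or within 2 kb of it. Over the genome 3.71% of H3K4me3 places held no H3K4me2 peak in either treatment. By peaks, 10 of the 11 S2101 H3K4me3 peaks overlapped S2101 H3K4me2 and 12 of the 13 Control peaks overlapped Control H3K4me2, against 88.2% and 96.6% over the whole lists. H3K4me1 overlapped 3 of the 11 S2101 H3K4me3 peaks (27.3%, 95% exact interval 6.02 to 61.0%) and 8 of the 13 Control ones (61.5%, 31.6 to 86.1%). Over the whole lists 11.3% and 33.8% did, which lie within these intervals for counting error. The stretch was chosen for its many Control H3K4me1 peaks, which favours higher shares here, so nothing is read from them.

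**Figure D2:**
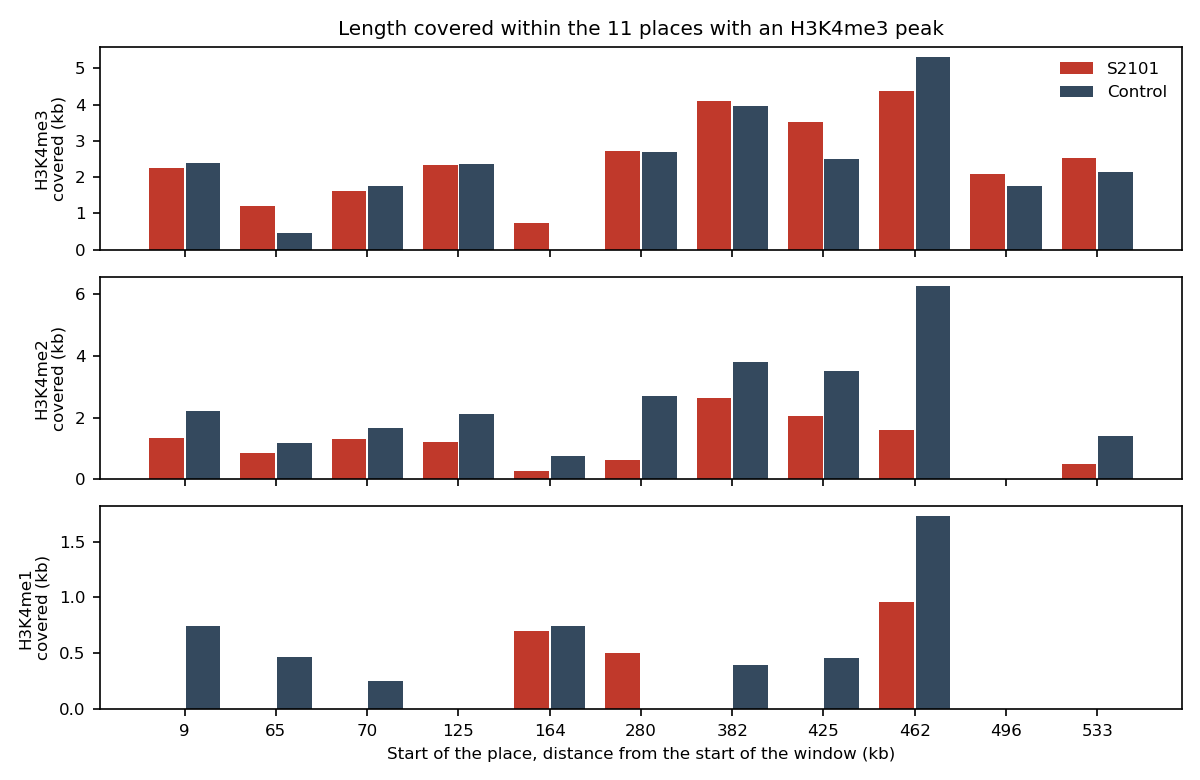
Bars give the length in kb covered by peaks of H3K4me3, H3K4me2 and H3K4me1 within each of the 11 places with an H3K4me3 peak, S2101 left of Control, with the places named by their start in kb from the start of the stretch. H3K4me3 is longer with S2101 at 7 places and shorter at 4. H3K4me2 is shorter with S2101 at each of the 10 places that hold it, and the place at 496 kb holds neither H3K4me2 nor H3K4me1.

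S2101 H3K4me2 peaks were mostly narrow pieces inside wider Control peaks. Of the 29 S2101 peaks 27 overlapped a Control peak (93.1%, 95% exact interval 77.2 to 99.2%), against 96.1% over the whole list. Of the 27 Control peaks 16 overlapped an S2101 peak (59.3%, 38.8 to 77.6%), against 74.2%. The whole-list share lies within both intervals, which cover counting error only. In all 11 one-to-one matches the S2101 peak was the narrower, with a median ratio of widths of 0.501 (range 0.228 to 0.676), against 99.6% of 10188 matches and a median of 0.503 over the whole lists. A Control peak met 2 S2101 peaks at 2 positions and at least 3 at another 3. At the 10 H3K4me3 places with Control H3K4me2, the covered length was 0.233 to 0.785 times as long with S2101, with a median of 0.574. The median over 12784 such places of the genome was 0.609.

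The widest H3K4me2 peak of the stretch was a Control peak of 6095 bp (137662918 to 137669012, score 2272.23, also the highest score here), behind another Control peak of 1051 bp (137661829 to 137662879, score 359.45). With S2101 4 peaks covered 1657 bp of the wide one and none overlapped the other. These 4, named because they lie in the widest Control peak, were at 137664471 to 137664720, 137664762 to 137665062, 137665079 to 137665631 and 137667740 to 137668292, with widths of 250, 301, 553 and 553 bp. The first 3 lay within H3K4me3 of both treatments. The last lay behind S2101 H3K4me3, with 498 bp of it inside Control H3K4me3, and overlapped an S2101 H3K4me1 peak of 661 bp (137667774 to 137668434, score 356.17). H3K4me3 at this domain reached 137666329 with S2101 and 137668243 with Control, where the 2 small peaks described above form its end. Control H3K4me1 lined the same side with peaks at 137666837 to 137667583 (747 bp, score 367.44), which no S2101 peak overlapped, and at 137667802 to 137669423 (1622 bp, score 1239.48).

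**Figure D3:**
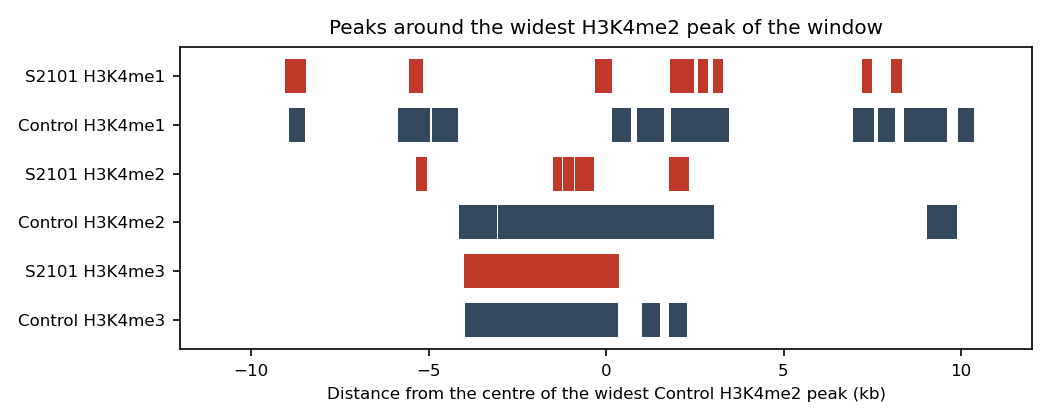
Bars are peaks of the 6 lists, S2101 above Control for each mark, by distance in kb from the centre of the widest Control H3K4me2 peak of the stretch. The Control H3K4me2 peak of 6095 bp corresponds to 4 narrow S2101 peaks that cover 1657 bp of it, while the main H3K4me3 peak has nearly the same bounds in both treatments.

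Most other wide Control H3K4me2 peaks were overlapped over more of their width. The one of 2918 bp (137581906 to 137584823, score 1351.97) had 2179 bp covered with S2101 by 4 peaks, which include those at 137582136 to 137582827 (692 bp) and 137582933 to 137583589 (657 bp, score 371.79). The Control peak of 2623 bp (137624965 to 137627587, score 1039.82) had 1741 bp covered by 4 S2101 peaks. The Control peak of 2125 bp (137269789 to 137271913, score 1309.96) had 1310 bp covered by a single S2101 peak (137270456 to 137271765, score 898.12), the widest and highest-scoring S2101 H3K4me2 peak here. The Control peak of 2764 bp (137479389 to 137482152, score 1136.71) had 631 bp covered by 1 S2101 peak (137481324 to 137481954). Other high-scoring S2101 H3K4me2 peaks were those at 137327126 to 137327702 (score 376.79), 137264933 to 137265335 (score 367.29) and 137209059 to 137209859 (801 bp, score 333.69). All of these lay within H3K4me3 of both treatments.

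Away from H3K4me3 little H3K4me2 was listed with S2101. Beyond 2 kb from the 11 places H3K4me2 covered 1402 bp with S2101 and 8144 bp with Control, a ratio of 0.172. Within 2 kb it covered 12844 bp and 30273 bp, a ratio of 0.424. The same ratios over the genome were 0.169 beyond 2 kb and 0.513 within it. Of the H3K4me2 length, 90.2% with S2101 and 78.8% with Control lay within 2 kb, compared with 95.1% and 86.6% over the genome. By peaks, 23 of 29 with S2101 and 14 of 27 with Control overlapped H3K4me3 (whole lists 89.5% and 71.8%). The 95% exact intervals were 60.3 to 92.0% with S2101 and 31.9 to 71.3% with Control. The second ends just below its whole-list share. Merging the 6 lists gave 13 regions with H3K4me2 and no H3K4me3, of which 2 had H3K4me2 with S2101 only, 9 with Control only and 2 in both. Over the genome there were 5559 such regions, 10.6% with S2101 only, 64.8% with Control only and 24.6% in both. H3K4me1 was also listed in 12 of the 13, and in 69.7% of those of the genome. The choice of the stretch by Control H3K4me1 favours a high share here.

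The highest-scoring Control H3K4me2 peaks without an S2101 counterpart were, apart from the one of 1051 bp named above, at 137388449 to 137389594 (1146 bp, score 372.19), 137599089 to 137600024 (936 bp, score 261.61), 137675011 to 137675846 (836 bp, score 242.78) and 137243814 to 137244829 (1016 bp, score 196.71). None of these 4 touched H3K4me3. S2101 H3K4me1 covered 284 bp of the one at 137388449 and 550 bp of the one at 137243814, and none of the other two. Control H3K4me1 covered 1027, 446, 570 and 847 bp of the 4. In the opposite direction there were 2 small S2101 H3K4me2 peaks without a Control counterpart, at 137464992 to 137465260 (269 bp, score 113.69) and 137660621 to 137660912 (292 bp, score 106.94). Control H3K4me1 covered both in full.

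Control H3K4me1 peaks lay in 11 clusters, formed by joining neighbouring peaks, and most of the H3K4me3 places lay at least partly inside a cluster. The longest gap within a cluster was 12.3 kb and the shortest between clusters 14.5 kb. The S2101 peaks were 251 to 1037 bp wide (median 373 bp), the Control peaks 249 to 2953 bp (median 560.5 bp). Of the 74 S2101 peaks 65 overlapped a Control peak (87.8%), and of the 134 Control peaks 54 overlapped an S2101 peak (40.3%), against 72.5% and 33.0% over the whole lists. This contrast contains the list that chose the stretch, so nothing is read from these shares. One-to-one matches numbered 46, with the S2101 peak narrower in 41 of them and a median ratio of widths of 0.592. Over the whole lists 87.5% of 10293 matches were narrower with S2101, with a median of 0.606. Few H3K4me1 peaks touched the other marks. With S2101 5 of 74 overlapped H3K4me2 and 5 of 74 H3K4me3, against 10.4% and 8.68% over the whole list. With Control 27 of 134 overlapped H3K4me2 (20.1%) and 9 of 134 H3K4me3 (6.72%), against 30.4% and 13.8%. After merging all lists, 112 of the 136 regions held H3K4me1 alone: 7 with S2101 only, 61 with Control only and 44 in both. Over the genome 62.0% of the 51356 merged regions held H3K4me1 alone, 15.1% of these with S2101 only, 59.2% with Control only and 25.7% in both. The choice of the stretch by its many Control H3K4me1 peaks enters these overlaps and region counts too, so nothing is read from them.

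Control H3K4me1 peaks with high scores were found again more often than those with low scores, in the stretch as over the whole list. Of the 19 with a score of 400 or more, 16 overlapped an S2101 peak (77.6% did over the whole list). Of the 45 with a score of 200 to below 400 it was 19 (40.4% over the whole list), and of the 70 below 200 it was 19 (17.4%). The median score was 295 for the 54 found again and 156 for the 80 others, and the median width 706 and 481 bp. Score and width were not separated. The Control H3K4me1 list chose the stretch, so these values only describe it.

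**Figure D4:**
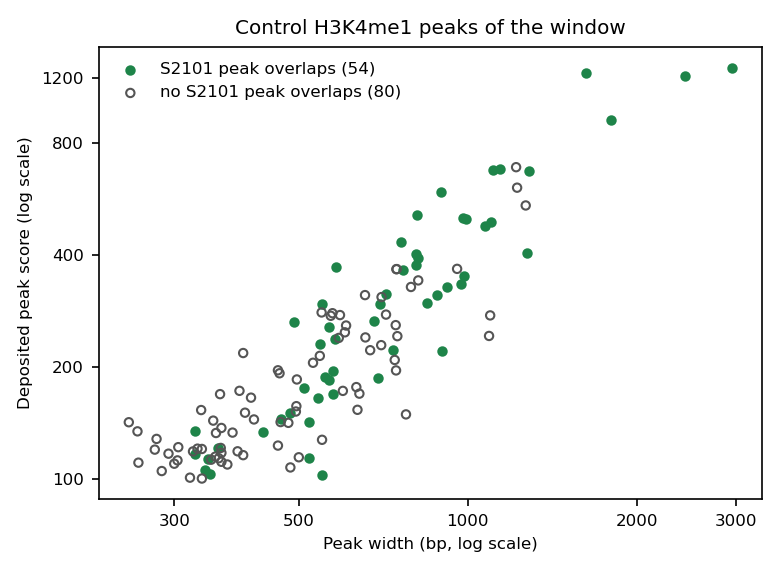
Each point is 1 of the 134 Control H3K4me1 peaks of the stretch, by width (bp) and deposited score, both on log scales. Filled points are the 54 peaks that an S2101 H3K4me1 peak overlaps and empty ones the 80 that none overlaps; the filled points make up most of the upper right, while 3 of the 19 peaks with a score of 400 or more are empty.

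The ratio of H3K4me1 length, S2101 over Control, differed between the clusters. The largest, of 65.2 kb (137427039 to 137492225), held 27 Control peaks, of which 11 were found again, and S2101 covered 9860 bp against 18193 bp with Control, a ratio of 0.542. It holds the widest and highest-scoring Control peak (137487472 to 137490424, 2953 bp, score 1278.84), of which 4 S2101 peaks covered 2292 bp. Among them was the widest S2101 H3K4me1 peak (137489284 to 137490320, 1037 bp, score 343.95). It also holds the highest-scoring S2101 H3K4me1 peak (137461154 to 137462158, 1005 bp, score 769.98), a Control peak of 1284 bp (137459724 to 137461007, score 676.20) and the S2101 peaks at 137459884 to 137460660 (777 bp) and 137431174 to 137431975 (802 bp, score 389.14). No other cluster had a ratio as high. Those from 137362624 to 137391828 and from 137512184 to 137541194 came next, with ratios of 0.459 and 0.450.

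The cluster with the lowest ratio was the one from 137624992 to 137640502, beginning at the H3K4me3 place at 137624969. It held a single S2101 H3K4me1 peak, which covered 286 bp, and 9 Control peaks, which covered 4514 bp, a ratio of 0.0634. H3K4me3 covered 3498 bp of this cluster with S2101 and 2506 bp with Control, and H3K4me2 2130 bp and 4151 bp. Next came the cluster at 137208824 to 137221653, where S2101 covered 196 bp and 3 Control peaks 1487 bp (ratio 0.132). The cluster of 52.4 kb from 137555704 to 137608074 held 29 Control peaks, more than any other. Of these 8 were found again, and the ratio was 0.240. A wide Control peak in it (137555704 to 137557499, 1796 bp, score 924.10) had 687 bp covered with S2101. In the last cluster, from 137709334 to 137762261, the ratio was 0.355. A Control peak of 2440 bp there (137747558 to 137749997, score 1217.41) had 1206 bp covered with S2101, including the S2101 peak at 137748658 to 137749599 (942 bp). Over the 6 clusters with 10 or more Control peaks the ratio ran from 0.240 to 0.542, against 0.347 over the whole lists. H3K4me1 was shorter under S2101 in each. The clusters were drawn from Control peaks alone, which favours less S2101 length inside them, so nothing is read from this direction.

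The Control H3K4me1 peaks with the highest scores among those without an S2101 counterpart stood at 137674362 to 137675580 (1219 bp, score 690.31), 137689963 to 137691186 (1224 bp, score 608.09), 137741162 to 137742429 (1268 bp, score 544.69) and 137666837 to 137667583 (747 bp, score 367.44), and further up at 137587903 to 137588859 (957 bp, score 367.94). Those at 137674362, 137666837 and 137587903 also held Control H3K4me2, over 570, 747 and 436 bp, and none of the 5 held S2101 H3K4me2. There were 9 S2101 H3K4me1 peaks without a Control counterpart, 254 to 611 bp wide, of which 6 lay within 1 kb of a Control peak. Besides the pair at the H3K4me3 place in the middle of the stretch, the highest-scoring were at 137491086 to 137491611 (526 bp, score 204.88), 137743121 to 137743585 (465 bp, score 174.49) and 137464075 to 137464391 (317 bp, score 131.18).

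Read in steps of 10 kb, most bins with H3K4me1 or H3K4me2 had less of it with S2101. H3K4me1 covered less with S2101 in 41 of 57 bins and more in 3, and was absent from both lists in 13. The Control H3K4me1 list chose the stretch, so nothing is read from this count. For no mark were bins of the rest of the genome counted, and neighbouring bins are not independent. H3K4me2 covered less in 21 bins and more in 1, with 35 bins empty in both lists. H3K4me3 covered more in 7 and less in 6, with 44 empty. The fullest H3K4me1 bin with S2101 began 280 kb into the stretch (2953 bp covered with S2101, 2528 bp with Control), and that with Control 360 kb into it (1608 bp covered with S2101, 5880 bp with Control). Across the stretch 3 gaps of at least 20 kb held no peak of any list, 137276111 to 137307169 (31.1 kb), 137333214 to 137362623 (29.4 kb) and 137391829 to 137427038 (35.2 kb). All 3 lie before the largest cluster. From there to the end of the stretch no 20 kb were without a peak. The longest runs without H3K4me2 were 101 kb with S2101 (137364120 to 137464991) and 83.8 kb with Control (137482676 to 137566472).

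**Figure D5:**
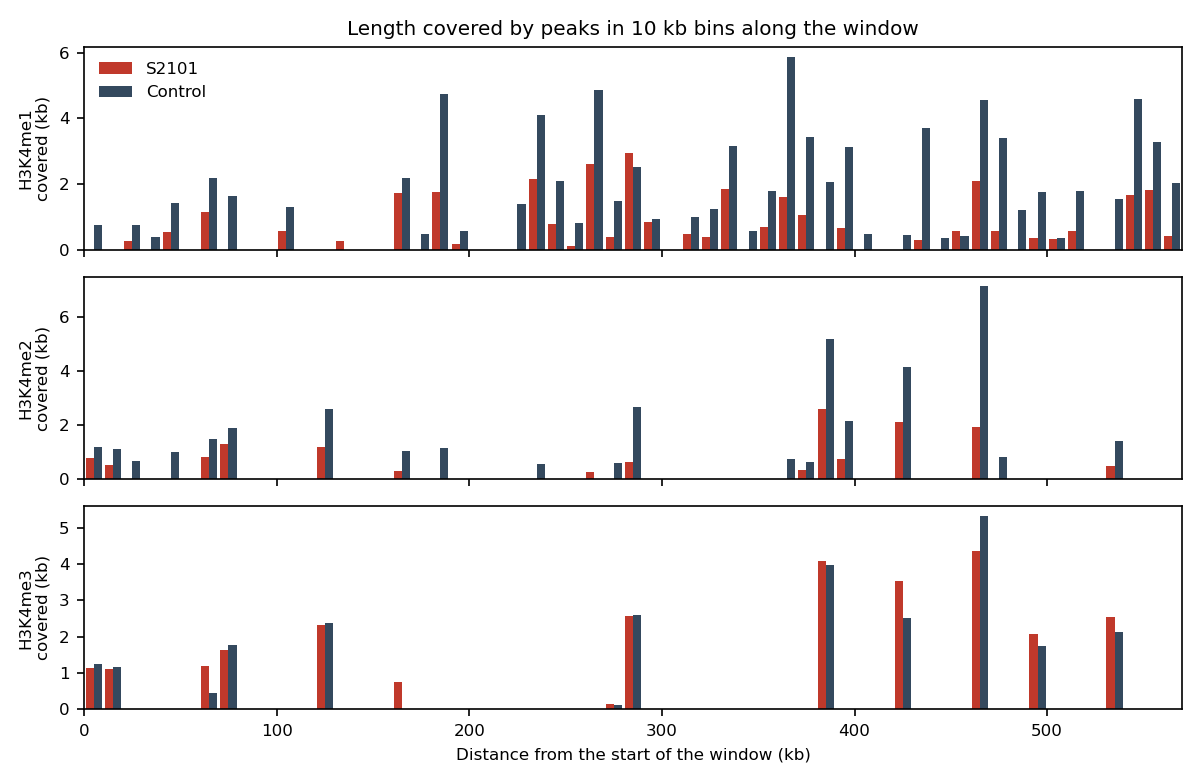
Bars give the length in kb covered by peaks in each 10 kb bin of the stretch, for H3K4me1, H3K4me2 and H3K4me3 from top to bottom, S2101 left of Control. H3K4me1 is shorter with S2101 in 41 of 57 bins and H3K4me2 in 21, while H3K4me3 goes either way (7 longer, 6 shorter). The H3K4me1 count only describes the stretch, which was chosen on the Control H3K4me1 list.

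H3K4me1 was also split by its distance from H3K4me3. Within 2 kb of the 11 places it covered 5357 bp with S2101 and 12743 bp with Control, a ratio of 0.420, and beyond 2 kb 26362 bp and 74117 bp, a ratio of 0.356. Over the genome the ratios were 0.274 within 2 kb and 0.367 beyond it. The difference was not tested. Of the 5357 bp with S2101, 1143 bp belonged to the place at 137264781 and 1153 bp to that at 137363843. A further 2079 bp belonged to that at 137661964 and 982 bp to that at 137479865, so few places carry the value. The place at 137479865 had 0 bp with Control within 2 kb. At no other place was H3K4me1 within 2 kb longer with S2101 than with Control. The higher ratio within 2 kb than beyond it rests on the place at 137479865.

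The widest merged regions were those around the H3K4me3 places at 137661829 to 137669423 (7595 bp), 137624965 to 137629160 (4196 bp), 137581906 to 137586005 (4100 bp) and 137479389 to 137483062 (3674 bp), followed by the H3K4me1-only region at 137487472 to 137490424. Regions with all 3 marks numbered 8. Of these, 1 had every mark in both treatments (137661829 to 137669423), 5 had H3K4me1 with Control only and the other marks in both (137208771 to 137211247, 137264781 to 137266083, 137269764 to 137272469, 137581906 to 137586005 and 137624965 to 137629160), 1 had H3K4me1 with S2101 only (137479389 to 137483062) and 1 had H3K4me3 with S2101 only (137363691 to 137364738). Of the 5771 regions of the genome with all 3 marks, these classes made up 25.5%, 58.2%, 5.39% and 3.10%, in the same sequence.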

How the data were processed

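The 6 deposited peak lists give chromosome, start, end, name and a score per peak; per the file headers they were made by the authors with MACS in Galaxy, 1 list per library, and the score is used only to rank peaks within a list. Bowtie2, deepTools and mm9 are named in the submitters' processing notes. Not given in the sources used here were caller settings, input use, duplicate handling and read numbers, so depth is unknown. The 4 inputs and 2 H3 libraries were not analysed here.

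The stretch, its genes and the lists of results were chosen with earlier results of these data known. Overlap meant at least 1 bp. Exact binomial (Clopper-Pearson) 95% intervals cover counting error only. Positions were named for every H3K4me3 peak, for the 5 widest and 5 highest-scoring H3K4me1 and H3K4me2 peaks per list, for the 5 highest-scoring peaks without a counterpart, and for the widest and 3-mark merged regions. Alternatives were score limits, merging, other overlap rules, lists of equal length and the whole 1 Mb window. Peaks were not placed on genes, and the cells' identity was not checked by markers, because the gene table is of another build. Python 3.11.15, numpy 2.4.6, scipy 1.17.1 and matplotlib 3.10.9 were used; overlap functions were checked on simulated intervals against bedtools 2.31.1.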

Additional observations from a re-analysis of the deposited data

How the results depend on the processing

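Of 116 alternative values for 22 results, 90 stayed near the reported one, 25 moved and 1 changed direction. The covered length ratio, S2101 over Control, ran from 0.253 to 0.516 for H3K4me1, from 0.264 to 0.459 for H3K4me2 and from 1.04 to 1.11 for H3K4me3. The H3K4me3 median width ratio turned to 0.975 when peaks less than 1 kb apart were merged, and merging moved that of H3K4me1 to 0.427 and of H3K4me2 to 0.707. With a score of at least 200 the peaks numbered 23 (S2101 H3K4me1), 64 (Control H3K4me1) and 14 (S2101 H3K4me2), and after merging 42, 62 and 15. With lists of equal length H3K4me1 had 74 peaks with S2101 and 72 with Control, and S2101 H3K4me3 had 17 in the whole 1 Mb window. The share of S2101 H3K4me1 peaks found in Control was 39.2% at a reciprocal overlap of 50%, 66.2% with lists of equal length and 95.9% within 1 kb. The share of Control H3K4me1 peaks found with S2101 was 21.6%, 54.2% and 66.4% under the same rules, and 25.0% with a score of at least 200. For H3K4me2, reciprocal overlap gave 20.7% of S2101 and 22.2% of Control peaks, and equal length 100% of S2101 peaks. For H3K4me3, a score of at least 200 gave 100% of S2101 and 100% of Control peaks. Under reciprocal overlap 5.97% of Control H3K4me1 peaks overlapped H3K4me2, and 0% of S2101 and 1.49% of Control ones H3K4me3. The cause of these shifts was not tested. No paired analysis was possible because each mark and treatment has 1 library. The number of reads is unknown, so a peak missing from a list is not shown to be absent from the cells.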
